A study of Mus musculus with 6 samples.

Results

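Gdf15 and 9 other genes tied to the integrated stress response were followed in the adult left ventricle after caffeine exposure in utero. The rule took every gene of the count files whose mouse symbol was Gdf15, Fgf21, Atf4, Ddit3, Atf3, Trib3, Sesn2, Asns, Psat1 or Phgdh, and it found all 10 among 43629 genes. Gdf15 was chosen by its measured rise in caffeine-treated hearts in this same experiment, so its values are given as a description and are not tested. The other 9 were named for their place in the pathway, also with earlier results of these data in view. The hearts came from male CD-1 mice, an outbred stock, at 1 year of age, and all were of the F1 generation. Dams were injected i.p. once daily with vehicle (normal saline; 3 hearts) or with caffeine at 20 mg/kg (3 hearts) from E6.5 to E9.5, or to E10.5 by a second label field. No genetic modification was made in either group. The mother of each mouse is not given for the RNA samples, so littermates may be among them and the p-values measure the spread between these 6 hearts.

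In the integrated stress response, kinases that sense misfolded protein, lack of amino acids, lack of heme or double-stranded RNA phosphorylate the translation factor eIF2, which slows most protein synthesis while the mRNA of the transcription factor ATF4 is translated more. ATF4 then turns on genes for amino acid synthesis and transport, further transcription factors such as CHOP (the product of Ddit3), inhibitors that restrain the response, and the secreted hormones GDF15 and FGF21. In the heart, GDF15 and FGF21 are known as signals released under mitochondrial or mechanical stress, and Gdf15 is also a known target of p53.

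The elements through which ATF4 reads DNA were looked for first, since they show which of these genes carry the same letters at the start site. The window was the 250 bases before and the 50 bases after each RefSeq start site (GRCm38.p6), and all 10 genes had a window. The composite element of ATF4 and C/EBP proteins was searched as TGATGNAA on either strand. It was present in 4 of the 10 genes (Asns, Atf3, Fgf21 and Trib3), against 4.51% of the 27025 genes in the table. As these genes were named for their place in the pathway, this share describes the list and tests nothing. The strict form TGATGCAA, which is contained in the first search, was present in Atf3 and Fgf21, against 1.03% of all genes. The cAMP response element TGACGTCA was present in 0 of the 10 genes, against 2.03% of all genes. The bases before the start are shown for Gdf15, whose 2 windows held none of these elements, and for the 3 genes whose element lay before the start. They are read 5′ to 3′ on the strand of the gene, all on the minus strand, and capitals mark the element.
Gdf15, chr8:70632457-70632706: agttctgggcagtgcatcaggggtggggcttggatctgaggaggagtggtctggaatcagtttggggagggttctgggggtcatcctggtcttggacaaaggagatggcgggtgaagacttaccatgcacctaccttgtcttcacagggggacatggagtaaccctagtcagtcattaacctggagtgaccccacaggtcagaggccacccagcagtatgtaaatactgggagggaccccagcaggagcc
Asns, chr6:7693210-7693459: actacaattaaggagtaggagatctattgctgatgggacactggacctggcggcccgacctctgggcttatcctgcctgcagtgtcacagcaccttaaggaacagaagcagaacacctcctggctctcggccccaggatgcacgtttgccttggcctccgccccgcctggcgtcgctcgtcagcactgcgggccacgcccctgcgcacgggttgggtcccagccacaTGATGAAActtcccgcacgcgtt
Atf3, chr1:191183334-191183583: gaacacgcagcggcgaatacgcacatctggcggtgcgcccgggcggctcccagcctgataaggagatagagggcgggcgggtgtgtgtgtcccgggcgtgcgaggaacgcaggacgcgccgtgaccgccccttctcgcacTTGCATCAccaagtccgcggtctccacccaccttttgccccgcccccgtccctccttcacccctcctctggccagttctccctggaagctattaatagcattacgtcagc
Fgf21, chr7:45615491-45615740: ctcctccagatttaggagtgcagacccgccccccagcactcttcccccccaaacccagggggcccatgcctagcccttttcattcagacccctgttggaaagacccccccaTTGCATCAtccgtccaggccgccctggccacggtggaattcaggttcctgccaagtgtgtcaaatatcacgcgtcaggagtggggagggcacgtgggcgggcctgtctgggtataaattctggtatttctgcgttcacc
The element of Asns lay 23 to 16 bases before the start, that of Atf3 110 to 103 and that of Fgf21 139 to 132. In Trib3 the element (TTACATCA, the reverse complement form) lay after the start, at bases 15 to 22 of the transcript. A match describes the letters only, and elements farther from the start were not searched.

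The libraries held between 7613011 and 10483101 counts, and every caffeine library was shallower than every vehicle library. The 10 highest genes of a library held 17.07% to 20.07% of its counts with vehicle and 22.59% to 25.95% with caffeine. This share fell from replicate 1 to 3 within each treatment. Levels are given in CPM, counts per 1000000 after scaling by TMM factors (0.94 to 1.072), and 3 counts corresponded to between 0.284 and 0.42 CPM. Such floors and counts cover counting error only. The tissue matched its label by marker genes. The 7 cardiomyocyte markers summed to between 49990 and 59440 CPM in every heart, while the atrial genes Myl7 and Sln were at or below 0.234 CPM and the third atrial gene, Myl4, stood between 0.70 and 1.76 CPM. The quasi-likelihood F test of edgeR was run on 13092 genes, with p-values adjusted over all of them by the Benjamini-Hochberg method. A gene was past the thresholds if its adjusted p was below 0.05 and it differed by more than 1.5-fold in either direction. In single genes, 3 hearts against 3 cannot give a p below 0.1 in the exact permutation test.

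Of the hormones, Gdf15 (ENSMUSG00000038508, chromosome 8 of GRCm38, 70629393 to 70632456, minus strand) encodes growth differentiation factor 15, a distant member of the TGF-beta family that lowers food intake through a receptor in the hindbrain. It stood at 3.03, 5.21 and 8.10 CPM in vehicle replicates 1 to 3 and at 15.3, 24.8 and 27.7 CPM in caffeine replicates 1 to 3. The treatments did not overlap, and the lowest caffeine value (replicate 1) was well above the highest vehicle value (replicate 3). The group means were 5.45 ± 2.55 CPM (SD, n = 3) with vehicle and 22.6 ± 6.51 CPM (SD, n = 3) with caffeine, a fitted fold of 4.17 (log2 fold change 2.06, standard error 0.30), the 16th highest of the 13092 log2 fold changes. RNA of the whole ventricle was measured, so a change in the number of cells that express a gene and a change of its RNA per cell cannot be told apart.

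Fgf21 (ENSMUSG00000030827, chromosome 7, 45613886 to 45615490), the other secreted hormone, had counts of 1, 0 and 0 with vehicle and 2, 0 and 2 with caffeine. All 6 values were at or below the floor of 3 counts, so the gene was not tested and no fold is given. Gfral, the GDF15 receptor, and Klb, the coreceptor of FGF21, had 0 counts in all 6 hearts, which allows up to between 0.284 and 0.42 CPM per heart. Ret, through which GFRAL signals, stood between 3.03 and 5.11 CPM and Fgfr1, a receptor kinase for FGF21, between 21.1 and 31.8 CPM, with overlap of the treatments in both (adjusted p = 0.944 and 0.832). These 2 genes lie outside the naming rule and were chosen after their values were seen.

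**Figure D1:**
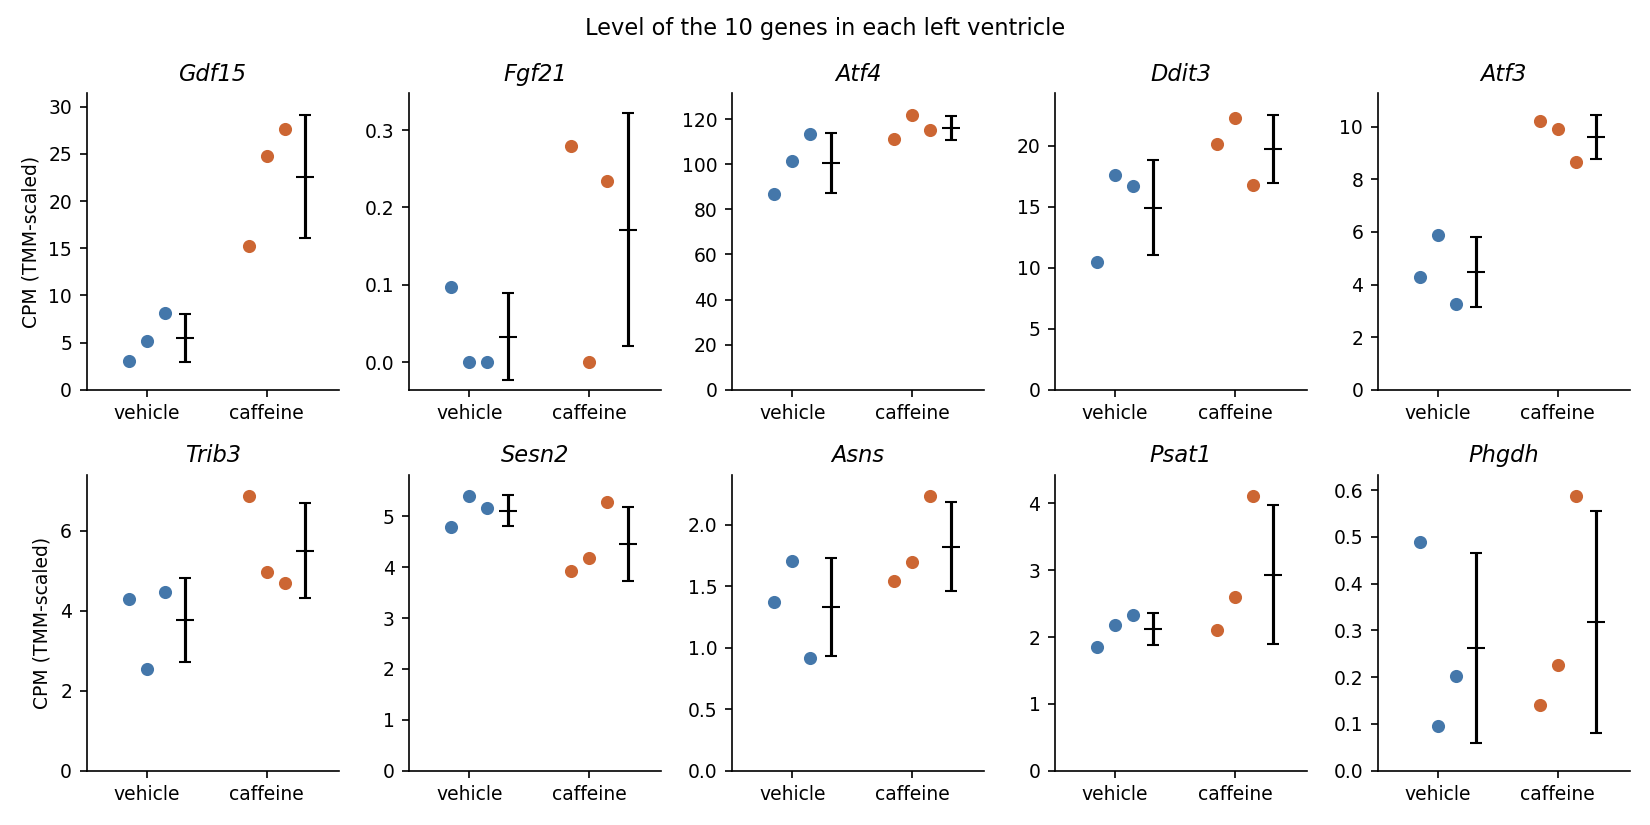
Level of each of the 10 genes in CPM scaled by TMM factors, 1 point per left ventricle (blue, vehicle replicates 1 to 3 from left to right; orange, caffeine replicates 1 to 3), with the group mean and SD (n = 3) in black. The treatments do not overlap for Gdf15, Atf3 and Trib3 and overlap for the other 7 genes.

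Among the transcription factors, Atf4 (ENSMUSG00000042406, chromosome 15, 80255184 to 80257541) was the most abundant gene of the group. Its mRNA stood at 86.9, 101.3 and 113.5 CPM in the vehicle-treated hearts and at 111.4, 121.7 and 115.3 CPM in the caffeine-treated hearts. The treatments overlapped. The fitted log2 difference was 0.21 (standard error 0.11, adjusted p = 0.618; exact permutation p = 0.2), and its 95% confidence interval ran from 0.984 to 1.36-fold, an upper bound below the 1.5-fold threshold. ATF4 protein is set largely by translation, which counts of mRNA do not measure.

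Ddit3 (ENSMUSG00000025408, chromosome 10, 127290774 to 127296288) encodes CHOP, which ATF4 induces and which promotes cell death under lasting stress. It stood at 10.5, 17.6 and 16.7 CPM with vehicle and at 20.2, 22.2 and 16.8 CPM with caffeine. Caffeine replicate 3 lay among the vehicle-treated hearts, so the treatments overlapped. The fitted log2 difference was 0.40 (standard error 0.19, adjusted p = 0.598; exact permutation p = 0.2), with an interval of 0.983 to 1.78-fold. Its exons overlap those of Mars on the opposite strand, and the strand setting of the counting is not given, so the counts of Ddit3 are uncertain.

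Atf3 (ENSMUSG00000026628, chromosome 1, 191170296 to 191218039) encodes a stress-inducible factor that follows ATF4 and also responds rapidly to many other stimuli. It stood at 4.30, 5.87 and 3.24 CPM with vehicle and at 10.2, 9.93 and 8.68 CPM with caffeine. All 3 caffeine-treated hearts lay above all 3 vehicle-treated hearts. After Gdf15 its log2 fold change was the highest of the 8 tested genes, 1.10 (standard error 0.22; exact permutation p = 0.1), and its interval ran from 1.53 to 2.99-fold. Adjusted over all genes, its p was 0.122 in the quasi-likelihood test, so it was not past the thresholds. It was past them with DESeq2 (adjusted p = 0.0202), with edgeR's exact test (adjusted p = 0.00147) and with its likelihood ratio test (adjusted p = 0.00131). With no filter on low counts it was also past them in the quasi-likelihood test (adjusted p = 0.000118). That fit gave far smaller p-values for some genes, as for Acta1 among the load genes below (adjusted p = 2.4e-46, against 0.00296 in the main fit). Calls from it are therefore read with caution. The adjusted p of Atf3 ran from 0.108 to 0.274 when each heart was left out in turn.

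The inhibitors among the members are Trib3, a pseudokinase that inhibits ATF4 and CHOP, and Sesn2, a leucine sensor that holds back mTORC1. Trib3 (ENSMUSG00000032715, chromosome 2, 152337422 to 152344032) stood at 4.30, 2.55 and 4.46 CPM with vehicle and at 6.86, 4.97 and 4.69 CPM with caffeine. Its treatments did not overlap, but caffeine replicate 3 was only slightly above vehicle replicate 3. The fitted log2 difference was 0.54 (standard error 0.27, adjusted p = 0.61; exact permutation p = 0.1), with an interval of 0.965 to 2.19-fold. Sesn2 (ENSMUSG00000028893, chromosome 4, 132492032 to 132510501) stood at 4.79, 5.39 and 5.17 CPM with vehicle and at 3.92, 4.18 and 5.28 CPM with caffeine. It overlapped between the treatments, with the lowest fold change of the group, a log2 value of −0.19 (standard error 0.21, adjusted p = 0.853; exact permutation p = 0.3). Its interval ran from 0.635 to 1.20-fold.

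Of the amino acid synthesis genes, Asns makes asparagine, while Phgdh and Psat1 catalyse the first steps of serine synthesis. Asns (ENSMUSG00000029752, chromosome 6, 7675169 to 7693254) stood at 1.37, 1.70 and 0.912 CPM with vehicle and at 1.54, 1.69 and 2.23 CPM with caffeine, on between 9 and 19 counts a heart. The treatments overlapped, with a log2 difference of 0.45 (standard error 0.34, adjusted p = 0.772; exact permutation p = 0.3) and an interval of 0.813 to 2.30-fold. That interval holds both no change and a doubling. Psat1 (ENSMUSG00000024640, chromosome 19, 15904678 to 15947337) stood at 1.86, 2.18 and 2.33 CPM with vehicle and at 2.10, 2.60 and 4.10 CPM with caffeine. Caffeine replicate 1 lay below 2 of the vehicle-treated hearts, so the treatments overlapped, and the fitted log2 difference was 0.48 (standard error 0.31, adjusted p = 0.713; exact permutation p = 0.3), with an interval of 0.867 to 2.23-fold. Phgdh (ENSMUSG00000053398, chromosome 3, 98313170 to 98339990) had counts of 5, 1 and 2 with vehicle and 1, 2 and 5 with caffeine, was below the filter and was not tested.

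Together, 8 of the 10 genes passed the filter on low counts. Of the 7 tested genes other than Gdf15, 0 were past the thresholds in the quasi-likelihood test, where 0.107% of all tested genes (14 of 13092) were, and 1 of the 7 (Atf3) had an unadjusted p below 0.05, as did 8.82% of all genes. Likewise 1 of the 7, again Atf3, was past the thresholds in DESeq2, in edgeR's exact test and in its likelihood ratio test, and 0 in limma-voom. Of all 13092 genes, DESeq2 had 39 higher and 28 lower past the thresholds, and the exact test 61 and 33. The likelihood ratio test had 63 higher and 38 lower, and limma-voom 11 and 3. In 2 of the 7 (Atf3 and Trib3) all caffeine values exceeded all vehicle values, which held for 7.11% of all tested genes. The median log2 fold change of the 7 was 0.45, against 0.00088 over all genes tested, and 6 of the 7 values were above 0. These counts describe the members that were abundant enough to be tested. The next fold after the 4.17 of Gdf15 was the 2.14 of Atf3, and whether Gdf15 differed more than the other members was not tested, since it was chosen for its difference.

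**Figure D2:**
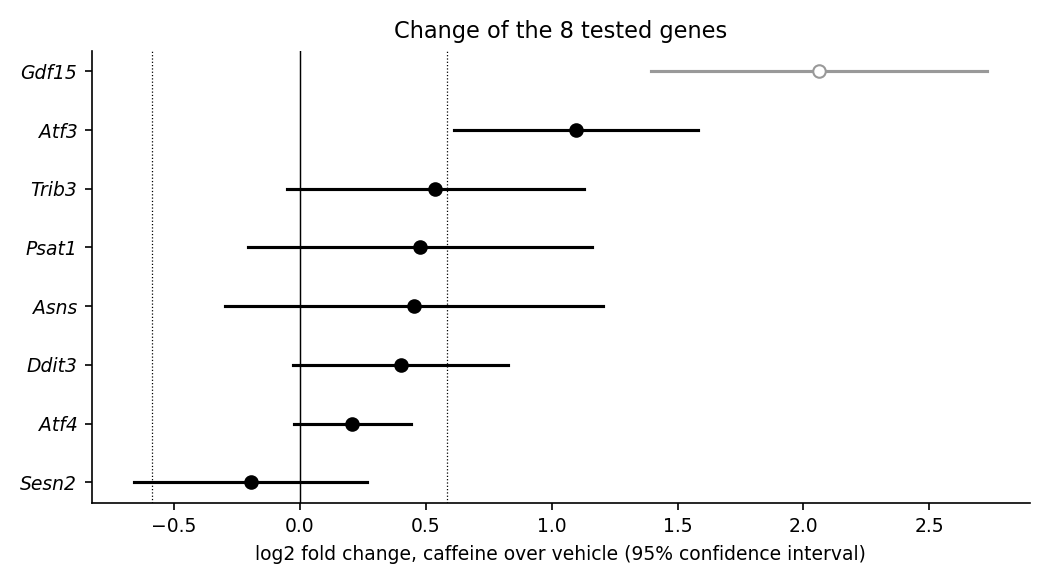
Log2 fold change of caffeine over vehicle for the 8 tested genes, with 95% confidence intervals from the quasi-likelihood fit (3 hearts per treatment); dotted lines mark a 1.5-fold change in either direction. Gdf15, in grey, was chosen for its rise, and Atf3 is the only other gene whose interval lies wholly above 0.

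To compare genes with each other, levels were divided by the joined length of all their annotated exons. These lengths came from GENCODE M21, which may differ from the annotation used for counting. The counts of Ddit3 are uncertain, as said above, and so is its place in the order. In the vehicle-treated hearts Atf4 was highest, at 42.6 ± 5.65 CPM per kilobase (SD, n = 3), followed by Ddit3 at 8.71 ± 2.27 CPM per kilobase (SD, n = 3) and Gdf15 at 2.94 ± 1.38 CPM per kilobase (SD, n = 3). Next came Atf3 at 2.08 ± 0.61, Trib3 at 1.77 ± 0.50 and Sesn2 at 1.47 ± 0.09 CPM per kilobase (SD, n = 3 each), and then Psat1 and Asns at 0.499 ± 0.06 and 0.485 ± 0.15 CPM per kilobase (SD, n = 3 each). The ranges of neighbours from Gdf15 to Sesn2 overlapped, as did those of Psat1 and Asns, so the order of these neighbours is not resolved. The lowest Gdf15 value (1.635) was above the highest Sesn2 value (1.552), so those ranges did not overlap. The ranges of Atf4, Ddit3 and Gdf15 did not overlap either. With caffeine the level of Gdf15 was 12.2 ± 3.51 CPM per kilobase (range 8.24 to 14.9), overlapping that of Ddit3 at 11.5 ± 1.61 CPM per kilobase (range 9.79 to 13.0), and that of Atf3 was 4.46 ± 0.38 CPM per kilobase.

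The wider pathway was examined in 6 lists of 78 genes, of which 72 were tested. By the quasi-likelihood test of edgeR 0 of the 72 passed both thresholds, and the median log2 fold change was −0.01. An unadjusted p below 0.05 was found for 4 of the 72, a share under the 8.82% of all genes. Impact and Slc38a1 were higher, Aldh1l2 and Stc2 lower. In 3 of the 72 the caffeine-treated hearts all lay above and in 4 all below the vehicle-treated hearts, where 7.11% and 7.12% of all genes did. In other fits Aldh1l2 and Stc2 were past the thresholds with the exact test, and Aldh1l2 alone with DESeq2. Aldh1l2, Stc2 and Slc38a1 were past them with the likelihood ratio test and with no filter. Over all 13092 genes, 61 were higher and 33 lower past the thresholds with the exact test, and 39 and 28 with DESeq2. The likelihood ratio test gave 63 and 38, and no filter gave 145 and 95 of 22407 genes.

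Upstream of ATF4, the 17 genes for eIF2 kinases, eIF2 and its exchange factor and phosphatases had a median log2 fold change of 0.05. The highest was Impact, an inhibitor of the amino acid sensing kinase GCN2, at 0.32 (standard error 0.12, adjusted p = 0.446), and the lowest was Eif2s3x, which encodes the gamma subunit of eIF2, at −0.42 (adjusted p = 0.647). In a separate list, which is not upstream of ATF4 as a whole, the 8 tested bZIP partners and stress factors lay between −0.12 (Crebrf) and 0.19 (Jdp2). Their smallest adjusted p was 0.792. In both lists 0 genes were past the thresholds, and Impact was the only one with an unadjusted p below 0.05 in the quasi-likelihood test.

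Downstream, 12 tested genes of serine, glycine, one-carbon and proline synthesis had a median of −0.06 on the log2 scale. The highest was Cth, which makes cysteine from cystathionine, at 0.41 (adjusted p = 0.78). The lowest was Aldh1l2 (ENSMUSG00000020256, chromosome 10), the mitochondrial enzyme that oxidises formyl-tetrahydrofolate. Aldh1l2 stood at 7.03, 6.91 and 5.17 CPM with vehicle and at 4.06, 0.790 and 1.99 CPM with caffeine, and the treatments did not overlap. Its log2 fold change was −1.53 (standard error 0.40, adjusted p = 0.257), a difference opposite in sign to that of Gdf15. Leaving out each heart in turn kept it between −2.19 and −1.10.

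Of the amino acid transporters 8 of 11 were tested, with a median log2 fold change of −0.13. Slc38a1, a sodium-coupled glutamine carrier, stood at 2.34, 1.89 and 3.04 CPM with vehicle and at 3.22, 6.21 and 8.80 CPM with caffeine. All 3 caffeine-treated hearts lay above, and the fitted log2 difference was 1.34 (standard error 0.35, adjusted p = 0.255). The lowest was Slc43a1, a carrier of large neutral amino acids, at −0.69 (adjusted p = 0.588). The list of 15 other outputs of ATF4 and CHOP also held relatives of Sesn2 and Trib3 (Sesn1, Sesn3, Trib1 and Trib2), which need not follow ATF4. Its median was −0.05, from Eif4ebp1, an inhibitor of cap-dependent translation, at 0.14 (adjusted p = 0.839) to Stc2. Stc2, which encodes the secreted glycoprotein stanniocalcin 2, stood at 20.9, 17.1 and 15.3 CPM with vehicle and at 11.1, 10.8 and 12.2 CPM with caffeine. It was lower in every caffeine-treated heart, with a log2 difference of −0.64 (standard error 0.15, adjusted p = 0.189). The 12 tRNA synthetases that ATF4 regulates lay between −0.20 (Eprs) and 0.17 (Wars) on the log2 scale, with a smallest adjusted p of 0.676, and the value of Wars was −0.15 without caffeine replicate 1.

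Lists for the other arms of the unfolded protein response, for mitochondrial chaperones and proteases and for the p53 pathway gave similar counts past the thresholds. They count mRNA and do not measure the activity of ATF6, IRE1 or p53. Of 17 outputs of ATF6 and IRE1, 0 were past the thresholds and 1 had an unadjusted p below 0.05 in the quasi-likelihood test, where 8.82% of all genes had one, with a median of 0.07. That gene, Sdf2l1, a component of the endoplasmic reticulum chaperone complex, differed by 0.72 on the log2 scale (adjusted p = 0.372), and the lowest was Herpud1 at −0.22 (adjusted p = 0.701). Of 7 mitochondrial chaperones and proteases 0 were past the thresholds and 0 had an unadjusted p below 0.05, with values from −0.13 (Hspd1) to 0.16 (Hspe1) and a smallest adjusted p of 0.82, and Hspe1 ran from −0.12 to 0.74 as each heart was left out. The annotated spans of Hspd1 and Hspe1 overlap, so both are uncertain. Of 11 p53 pathway genes 0 were past the thresholds and 1, Eda2r, had an unadjusted p below 0.05, again against 8.82% of all genes, with a log2 fold change of 0.68 (adjusted p = 0.437). The lowest was Trp53inp1 at −0.29 (adjusted p = 0.663), and the median was 0.11. All caffeine values lay above all vehicle values in 2 of the 11 and below them in 1, where 7.11% and 7.12% of all tested genes did so. A separate list held receptors and processing proteins of GDF15 and FGF21, with 5 of its 7 genes tested and 0 past the thresholds. Furin, a protease that cleaves hormone precursors of the TGF-beta family, was lower in every caffeine-treated heart, as were 7.12% of all tested genes. Of the 5, it was the only 1 with an unadjusted p below 0.05 in the quasi-likelihood test, against 8.82% of all genes. It stood at 305.9, 316.0 and 276.0 CPM with vehicle and at 245.4, 204.9 and 235.2 CPM with caffeine, a log2 difference of −0.39 (standard error 0.10, adjusted p = 0.213). Of the same list, Mmp14 was the highest at 0.33 (adjusted p = 0.632).

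**Figure D3:**
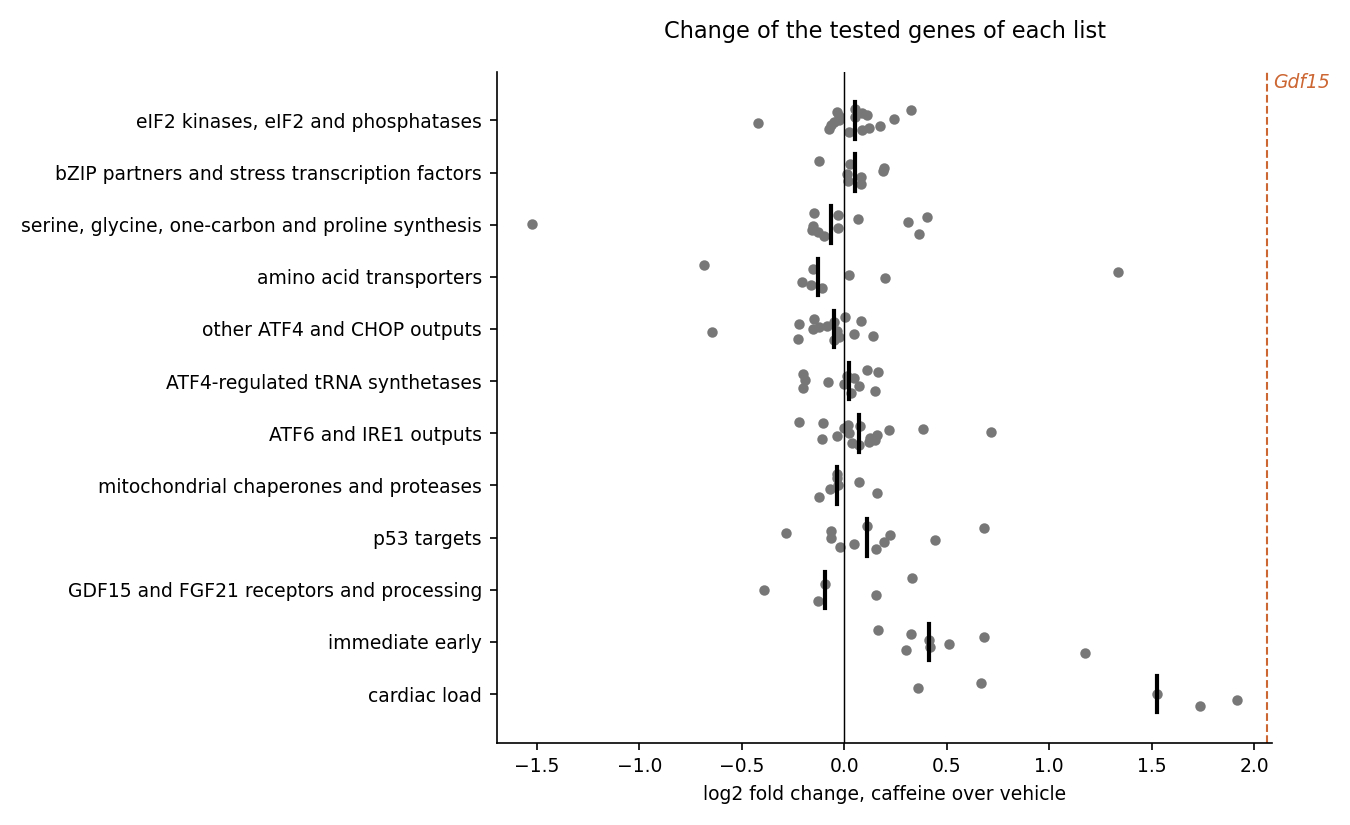
Log2 fold change of caffeine over vehicle for each tested gene of 12 lists (grey points), with the median of each list as a black bar and the value of Gdf15 as a dashed line. The medians of the first 8 lists lie between −0.13 and 0.07, those of the immediate early and cardiac load lists at 0.42 and 1.53.

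Markers of other cells and of rapid gene induction are given beside Gdf15 and Atf3. Of 8 tested immediate early genes all had a log2 fold change above 0 (median 0.42), 6 had an unadjusted p below 0.05 (8.82% of all tested genes did) and 0 were past the thresholds in the quasi-likelihood test. Fos, a partner of the AP-1 complex, was the highest, at 1.27, 2.65 and 2.03 CPM with vehicle and 4.06, 5.76 and 3.64 CPM with caffeine (log2 fold change 1.18, standard error 0.32, adjusted p = 0.269). Dusp1 was the lowest at 0.17 (adjusted p = 0.799), and −0.02 without caffeine replicate 1. The 6 fibroblast markers summed to between 769.8 and 920.5 CPM with vehicle and between 1021 and 1155 CPM with caffeine. All 6 had a log2 fold change above 0, 4 with an unadjusted p below 0.05, against the same 8.82%, and 0 past the thresholds. The 6 macrophage markers summed to between 181.2 and 287.3 CPM with vehicle and between 218.9 and 435.9 CPM with caffeine, so their ranges overlapped. Their log2 fold changes were all above 0, 1 with an unadjusted p below 0.05, against 8.82% of all genes, and 0 past the thresholds. Whether these groups of genes contribute to the levels of Gdf15 or Atf3 was not tested.

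Of 5 genes that the ventricle expresses under load, chosen with their values known, Nppb and Acta1, which encode B-type natriuretic peptide and skeletal alpha-actin, were past the thresholds, with log2 differences of 1.92 (adjusted p = 0.00228) and 1.53 (adjusted p = 0.00296). In all 5 the caffeine values lay above the vehicle values without overlap, as in 7.11% of all tested genes. Nppa, which encodes atrial natriuretic peptide, stood at 51.3, 90.2 and 180.2 CPM with vehicle and at 266.3, 370.0 and 433.1 CPM with caffeine. Its hearts fell in the same order as those of Gdf15 within each treatment, and the difference was 1.74 on the log2 scale (standard error 0.35, adjusted p = 0.125). Nppa was past the thresholds with the exact test (adjusted p = 0.000608), with the likelihood ratio test (adjusted p = 0.00053), with no filter, with the replicate block (adjusted p = 0.00511) and without vehicle replicate 3 (adjusted p = 0.00962), and was not with DESeq2 (adjusted p = 0.13) or limma-voom (adjusted p = 0.0897). The order of Nppb differed from that of Gdf15 in both treatments. Atf4 followed the order of Gdf15 in the vehicle-treated hearts but not in the caffeine-treated hearts, where its highest value was in replicate 2, and the order of Atf3 differed in both. Myh7 and Ankrd1 had log2 fold changes of 0.36 (adjusted p = 0.246) and 0.67 (adjusted p = 0.317).

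Likeness to Gdf15 was measured as the Pearson r of log2 CPM over the 6 hearts, which the difference between the treatments largely sets, and is given as a description. The 5 tested genes most similar to it were Twf1, an actin-binding twinfilin, Pemt, an enzyme of phosphatidylcholine synthesis, Mtmr6, a phosphoinositide phosphatase, Hat1, a histone acetyltransferase, and Gsdma, a gasdermin. Their r ran from 0.99 to 0.998, and Nppa was 7th at 0.988. Their own differences were small or imprecise. Twf1 stood at 12.3, 12.7 and 13.3 CPM with vehicle and at 13.9, 14.3 and 14.4 CPM with caffeine, a log2 fold change of 0.16, and the adjusted p of the 5 genes ran from 0.278 to 0.849. Among the members, r was highest for Atf4 (0.893), which ranked 173rd, and lowest for Sesn2 (−0.343). Asns and Trib3 had an r of 0.507 and 0.523, and ranked 2345th and 2216th. With the treatment means taken out, r was 0.908 for Atf4, 0.702 for Psat1, 0.606 for Sesn2 and 0.545 for Ddit3, and it was −0.172 for Asns, −0.305 for Trib3 and −0.461 for Atf3. The order of the members thus differed, and r had the other sign for Sesn2, Asns, Trib3 and Atf3. By the same measure r ran from 0.944 (Gsdma) to 0.987 (Twf1) in the 5 genes above, and was 0.971 for Nppa. The 5 genes were picked for the highest r over these same 6 hearts. Their high values here largely follow from that choice and cannot be set against those of the members. All r values without the treatment means rest on 3 hearts per treatment and were not ranked over all genes. Gdf15 rose from replicate 1 to 3 in both treatments, while the share of counts in the 10 highest genes fell. Whether the 2 are linked was not tested.

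**Figure D4:**
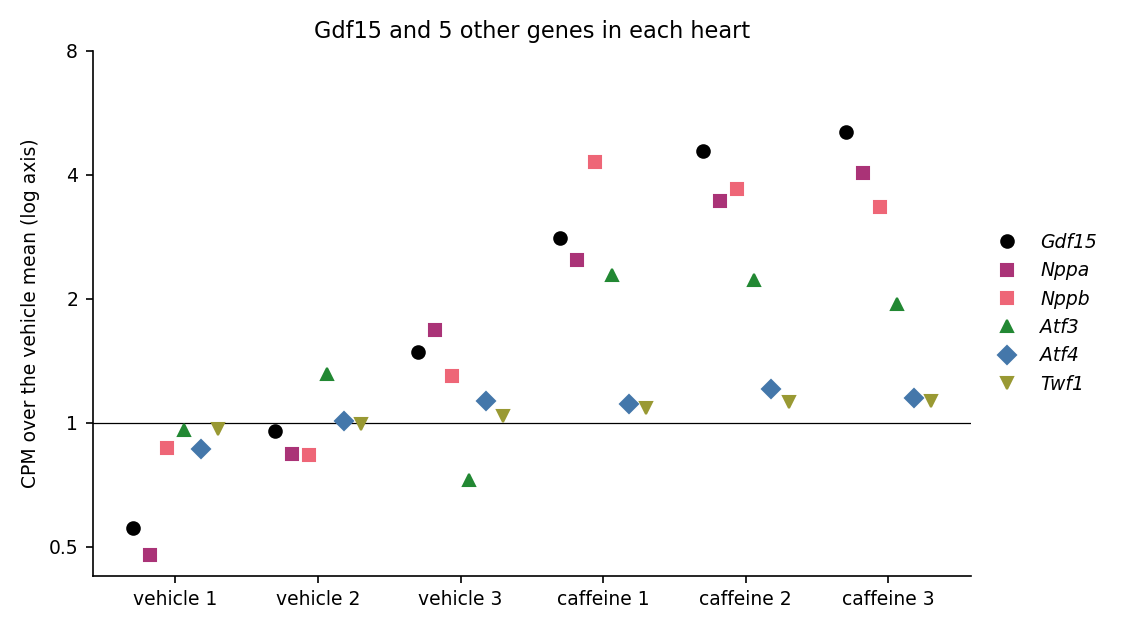
Level of Gdf15, Nppa, Nppb, Atf3, Atf4 and Twf1 in each of the 6 hearts, as CPM divided by the mean of the 3 vehicle-treated hearts of the same gene, on a log axis; symbols are shifted sideways so that they can be seen. In the caffeine-treated hearts Gdf15, Nppa and Nppb lie highest, Atf3 lower, and Atf4 and Twf1 close to 1.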

How the data were processed

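The authors sequenced poly(A) RNA of left ventricles as single-end reads. FastQC was used for cleaning, TopHat2 for mapping to mm10 (GRCm38) and HTSeq for counting per gene; versions and strand setting are not given in the sources used here. The deposited values are raw counts for 43629 genes in 6 samples, without normalization or pooling.

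From the counts, genes were filtered with filterByExpr (minimum count 10, minimum total 15), scaled by TMM and tested with edgeR 4.0.16 (glmQLFit, glmQLFTest, treatment as the only term, R 4.3.3). Standard errors are the absolute log2 fold change over the square root of F, and intervals use the fit's total degrees of freedom. Groups and replicate numbers came from the sample titles. Replicates differed by more than sampling noise (chi-square per degree of freedom 5.71 to 15.1), so each library counted as 1 sample. Alternatives were edgeR's exact and likelihood ratio tests, DESeq2 1.42.0, limma-voom (3.58.1), other scalings and filters, no fold threshold, the replicate block and each replicate left out. The fits were tested on simulated data. Positions and exon lengths came from GENCODE M21 of GRCm38, promoters from RefSeq (GRCm38.p6).

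The members and lists were chosen with earlier results of these data known. Named genes are the 10 members, the genes of each list past the thresholds, those without overlap and above 1.5-fold, its highest and lowest log2 fold change, and the 5 genes most like Gdf15. Marker lists are given as counts and sums. Endothelial, smooth muscle and erythrocyte markers had median log2 fold changes of −0.01, −0.14 and −0.03, with 0 past the thresholds and 0 at an unadjusted p below 0.05 in the quasi-likelihood test. The cardiomyocyte median was −0.07 and the only tested atrial marker had −0.26, also 0 past the thresholds.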

Additional observations from a re-analysis of the deposited data

How the results depend on the processing

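Over all alternatives the log2 fold change of each of the 8 tested members kept its sign wherever it could be fitted. Of the 7 other than Gdf15, 0 were past the thresholds with quasi-likelihood and all 13092 genes, and 1 (Atf3) with DESeq2, with edgeR's exact and likelihood ratio tests and with no filter on low counts. The wider pathway genes past the thresholds were 0 in the main test, 1 with DESeq2, 2 with the exact test, 3 with the likelihood ratio test and 3 with no filter. Some p-values with no filter were far smaller than in the main fit, so calls from that fit are read with caution. Gdf15, a description only, had a log2 fold change between 1.775 and 2.455 with each heart left out.

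Over all genes, 11 were higher and 3 lower past the thresholds. These counts were 39 and 28 with DESeq2, 61 and 33 with the exact test, 63 and 38 with the likelihood ratio test, and 145 and 95 with no filter. With library size only, 15 were lower. With each replicate left out in turn, between 4 and 17 were higher and between 0 and 13 lower. The counts of 4 higher and 0 lower came without caffeine replicate 3 and without vehicle replicate 2, where 935 and 938 genes had an unadjusted p below 0.05. The cause was not tested. Library size only moved the median log2 fold change of all genes to −0.08.

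With the replicate number as a block, 29 genes were higher and 11 lower, and 0 of the 7 members were past the thresholds. The sample titles do not say that equal numbers pair hearts. Deviations of same-numbered hearts correlated at 0.045, −0.03 and −0.038, and 2 of 6 hearts were closest to their own number. With 3 hearts per treatment these values cannot show whether same-numbered hearts shared a litter or a handling step.

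Among the named genes that were not past the thresholds, the sign changed on leaving out a replicate in Dusp1 (−0.016 to 0.253), Hspe1 (−0.118 to 0.736) and Wars (−0.15 to 0.316). The element TGATGNAA was in the windows of 4 members, of 3 when only the bases before the start were searched, and its strict form was in 2. Low counts left Fgf21 and Phgdh untested, and the intervals of Trib3, Asns and Psat1 held both no change and a doubling.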
